A study of Homo sapiens with 26 samples.

Results

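The subunits of the mitochondrial enzymes that break down branched-chain amino acids and propionate were examined as 8 genes picked by name, out of 58849 entries of the ribosome profiling tables and 60663 genes of the RNA-seq tables. They were PCCA and PCCB (propionyl-CoA carboxylase), MCCC1 and MCCC2 (methylcrotonyl-CoA carboxylase), IVD (isovaleryl-CoA dehydrogenase), and BCKDHA, BCKDHB and DBT (the branched-chain ketoacid dehydrogenase complex). The cells were HEK293T, a human embryonic kidney line, in which the ribosomal protein RPL29 carried a biotin acceptor tag and a light-controlled biotin ligase, LOV-BirA, was placed at 1 location. Ribosome profiling covered 3 polyclonal lines, with the ligase on the endoplasmic reticulum (ER, fused to Sec61β and driven by the SFFV promoter), on the outer mitochondrial membrane (OMM, through the OMP25 tail anchor under the EF1α promoter) or in the cytosol. Each line gave 2 replicates of a total input and a streptavidin pulldown of biotinylated ribosomes. RNA-seq of whole mRNAs on such ribosomes used the OMM ligase in cells with a negative control guide (WT), in AKAP1 null cells and in LARP4 null cells, with 2 replicates of each, and in 1 replicate labelled without cycloheximide. The null cells were 1 monoclonal line each. The labels name no guide for the sample without cycloheximide, which was labelled in a shorter pulse, and do not say that the null and WT lysates had cycloheximide during labelling, which is inferred here from the label of that 1 sample. The study calls its OMM profiling replicates biological, but the labels do not say how replicates were separated, so p-values measure only the spread between these lysates.

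Leucine, isoleucine and valine are first transaminated and then oxidized by the branched-chain ketoacid dehydrogenase, in which BCKDHA and BCKDHB form the decarboxylase and DBT is the acyltransferase core. IVD acts next on the leucine branch, and methylcrotonyl-CoA carboxylase follows it, whereas propionyl-CoA carboxylase takes the propionyl-CoA that isoleucine and valine leave. In both carboxylases an α subunit (PCCA, MCCC1) holds the covalently bound biotin and a β subunit (PCCB, MCCC2) transfers the carboxyl group. All 8 proteins are encoded in the nucleus, are made in the cytoplasm and work in the mitochondrial matrix, so each mRNA could be translated near the OMM or away from it.

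Counts assigned to coding sequences ranged from 1025114 to 19539527 footprints per ribosome profiling library, with the lowest total in an OMM pulldown, and RNA-seq libraries held 38347615 to 100840544 counts. The HEK293T genes PAX2, EYA1, LIN28B and IGF2BP1 were present in all 14 RNA-seq libraries, with at least 156 counts for the lowest of them (EYA1). Of the genes of other cell types, CD3E had 0 counts throughout and ALB, DCN, MYH7 and PTPRC reached at most 11 counts (DCN). AKAP1 had 32.2 and 20.3 CPM (counts scaled by the library total) in the AKAP1 null total inputs against 115 and 119 in WT, a difference that did not pass the test over all genes (log2 −2.15 ± 0.22 SE, adjusted p = 0.24, edgeR). LARP4 had 79.3 and 74.0 CPM in the LARP4 null total inputs against 225 and 231 in WT (log2 −1.56 ± 0.12 SE, adjusted p = 0.040, edgeR). Each gene was thus lower in both total inputs of its own null line.

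Levels in the total inputs came first, because they set the depth behind each ratio. Footprints on all exons were divided by the length of the reference coding sequence and by the library's exon total, which gives a density as in RPKM, but with the reference coding length. PCCA, the biotin-bearing subunit, had a median density of 5.61 over the 6 total inputs (4.16 to 8.67), whereas its partner PCCB had 64.4 (53.4 to 121). MCCC1 stood at 5.75 (4.10 to 8.96), and its partner MCCC2 at 83.1 (70.0 to 105). The β subunit thus had 8.33 to 15.4 times the footprint density of the α subunit in propionyl-CoA carboxylase and 8.75 to 17.1 times in methylcrotonyl-CoA carboxylase, and the ranges of partners did not overlap. The second ratio depends on the length used. The deposited exon RPKM divides by exon lengths of 17808 bases for MCCC2 and 3992 for MCCC1. It put MCCC2 at 4.35 against 1.46 in ER replicate 1 and at 5.24 against 3.44 in cytosol replicate 2. The dehydrogenase subunits lay closer together. BCKDHB had 30.9 (21.0 to 43.0) and DBT 24.3 (21.1 to 29.5), with overlapping ranges, and IVD had 55.4 (49.7 to 61.0). Footprints of BCKDHA (33.2, 31.7 to 75.9) were listed only in an entry that it shared with 2 overlapping genes, so this value is not that of BCKDHA alone. In the 6 RNA-seq total inputs of WT and null cells the same order of the carboxylase subunits held in TPM, a level per transcript length, with medians of 8.97 for PCCA against 34.0 for PCCB and ranges of 10.8 to 20.5 for MCCC1 against 30.4 to 39.6 for MCCC2, although these values rest on the authors' gene lengths, which for MCCC2 reach 20778 bases.

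**Figure D1:**
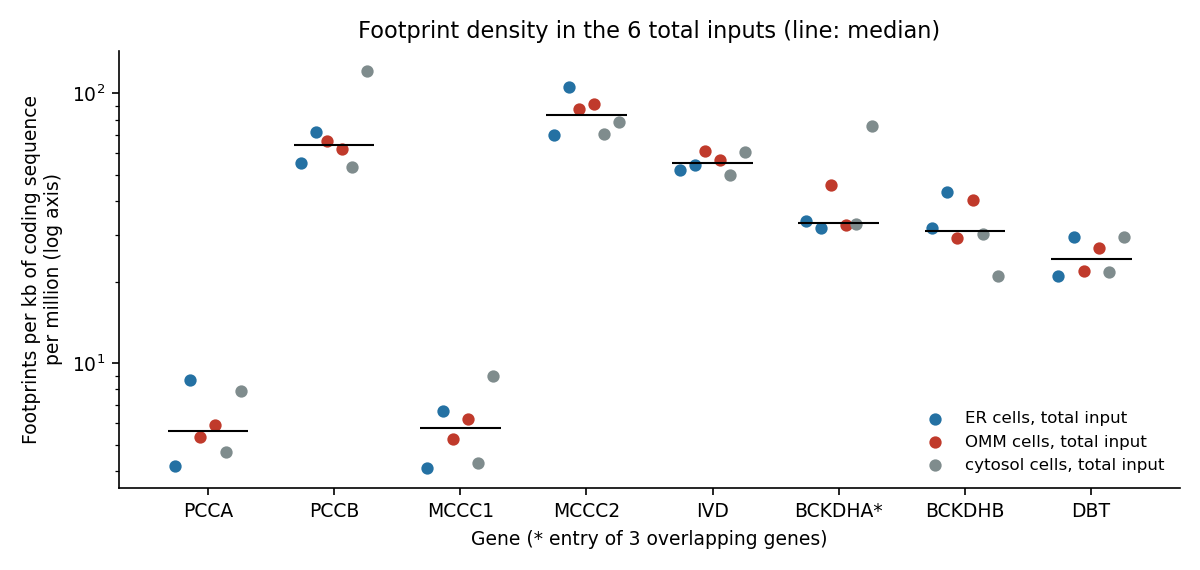
Footprint density, as RPKM over the reference coding length with all exon footprints (vertical log axis), for the 8 genes (horizontal axis) in the 6 total inputs, coloured by the location of LOV-BirA, with the median as a line. PCCA and MCCC1 lie between 4.10 and 8.96, below all other genes, and their partners PCCB and MCCC2 at 53.4 or above.

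Enrichment was the log2 ratio of a pulldown to the total input of the same lysate. For ribosome profiling it was first taken on footprints that the authors assigned to coding positions. Those positions left out much of some genes, as counted coding length came to 627 bases for PCCA and 66 for MCCC1, against reference coding sequences of 2184 and 2175 bases. The same ratio on footprints over all exons was therefore added after the data had been seen, and both are given. Values per lysate are ratios of the deposited RPKM, while the fits scaled each library by its total in the table. This makes the per-lysate values 0.20 to 0.37 higher than those fitted at the ER and 0.23 to 0.24 higher in the cytosol, and changes them by at most 0.03 at the OMM.

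Footprints of both subunits of propionyl-CoA carboxylase were enriched at the OMM. PCCB (chr3:136250340-136337896, GRCh38, + strand, 539 amino acids) had 693 and 700 coding footprints in the OMM total inputs and 747 and 1675 in the pulldowns, a log2 enrichment of 2.39 and 2.37. The fit gave 2.40 ± 0.10 SE (adjusted p = 1.8e-11, edgeR), and 2.67 ± 0.09 SE on all exons (adjusted p = 2.5e-13, edgeR). PCCA (chr13:100089015-100530437, + strand, 728 amino acids) had only 41 and 46.7 coding footprints in the OMM total inputs, below the minimum of 64, with a log2 enrichment of 1.96 and 2.00 that was not tested. On all exons it had 95 and 112 footprints in the total inputs and 108 and 304 in the pulldowns, or 2.47 and 2.56 in log2, and the fit gave 2.53 ± 0.18 SE (adjusted p = 5.4e-09, edgeR). On all exons the subunits differed by 0.19 and 0.09 in log2 in the 2 lysates, with PCCB the higher each time. Footprints of each gene outside the counted coding positions were more enriched than those inside. In PCCB the remaining exon footprints gave 3.41 in each lysate against 2.42 and 2.37 for the counted positions, all scaled by exon totals. In PCCA they gave 2.79 and 2.86 against 1.99 and 1.99. Which codons these positions cover in PCCA and PCCB was not resolved, since GENCODE 44 gave other lengths than those counted.

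The subunits of methylcrotonyl-CoA carboxylase differed. MCCC1 (chr3:183015218-183116075, − strand, 725 amino acids) had no footprint on its counted coding positions in any OMM library. On all exons it had 93 and 118 footprints in the OMM total inputs and 138 and 408 in the pulldowns, a log2 enrichment of 2.85 and 2.90 (fit 2.89 ± 0.15 SE, adjusted p = 5.0e-11, edgeR), the largest of the 8 genes on this measure. MCCC2 (chr5:71579531-71658706, + strand, 563 amino acids) had 1207 and 1343 exon footprints in the OMM total inputs but 293 and 795 in the pulldowns, which is 0.24 and 0.36 in log2. The fit gave 0.32 ± 0.09 SE (adjusted p = 0.0048, edgeR). Its partner MCCC1 was 2.61 and 2.55 higher in the same lysates. On coding positions MCCC2 gave −0.11 and 0.44 and did not pass the test (0.20 ± 0.25 SE, adjusted p = 0.51, edgeR). That measure rests on a small piece of the gene. Coding positions that are never untranslated in another coding or decay-prone transcript of GENCODE 44 add up to 397 bases, the exact length that the authors' tables count, and in the reference transcript they fall only in exon 1, over codons 6 to 43 (chr5:71587443-71587554). The coding part of that exon, chr5:71587426-71587554 on the + strand of GRCh38, is shown with the 112 counted bases in capitals, because the coding value of MCCC2 reads the reference transcript only there.
MCCC2: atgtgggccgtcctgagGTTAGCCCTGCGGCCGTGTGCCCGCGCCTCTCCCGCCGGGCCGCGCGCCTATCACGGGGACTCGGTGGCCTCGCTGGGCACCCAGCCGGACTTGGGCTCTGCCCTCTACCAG
The other counted bases lie in exons outside the reference transcript. Coding positions held 6.70% to 18.5% of the exon footprints of MCCC2 across lysates, so its value on all exons is the better covered one.

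In the dehydrogenase, 1 entry stood apart. The BCKDHA entry (BCKDHA itself at chr19:41397808-41425002, + strand, 445 amino acids) had 497 and 375 coding footprints in the OMM total inputs and 279 and 598 in the pulldowns, or 1.45 and 1.79 in log2 (fit 1.64 ± 0.13 SE, adjusted p = 4.6e-08, edgeR). How much of this belongs to the 2 overlapping genes cannot be told from the entry. BCKDHB (chr6:80106647-80346270, + strand, 392 amino acids), whose whole coding sequence was counted, gave −0.26 and −0.19 (fit −0.20 ± 0.15 SE, adjusted p = 0.25, edgeR). DBT (chr1:100186919-100249834, − strand, 482 amino acids) gave 1.21 and 0.31, on no more than 107 coding footprints in a total input and 32.7 and 61.5 in the pulldowns. Its fitted 0.70 ± 0.25 SE passed the test (adjusted p = 0.025, edgeR), but without replicate 1 it was 0.33 (adjusted p = 0.37, edgeR) and on all exons 0.10 ± 0.15 SE (adjusted p = 0.58, edgeR). IVD (chr15:40405485-40435947, + strand, 423 amino acids) gave −0.17 and −0.33 (fit −0.24 ± 0.14 SE, adjusted p = 0.13, edgeR). The 4 proteins with a log2 above 1 on all exons (PCCA, PCCB, MCCC1, BCKDHA) were 445 to 728 amino acids long and the other 4 were 392 to 563, so the lengths overlapped.

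**Figure D2:**
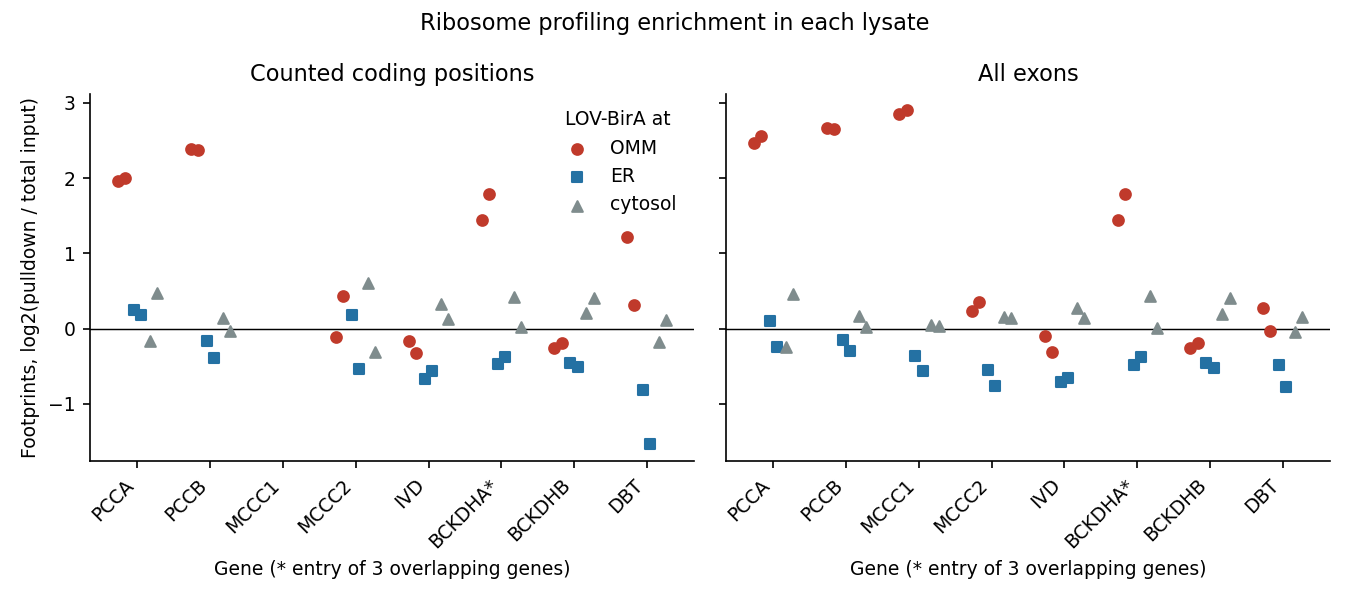
Log2 ratio of pulldown to total input RPKM (vertical axis) for the 8 genes (horizontal axis), on counted coding positions (left) and all exons (right), with 1 point per lysate for LOV-BirA at the OMM (circles), the ER (squares) and in the cytosol (triangles). On all exons the OMM points of PCCA, PCCB, MCCC1 and the BCKDHA entry lie at 1.45 or above and those of the other 4 genes between −0.31 and 0.36, and no coding value exists for MCCC1.

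Counted over the members at the OMM, 6 of 8 passed the minimum on coding positions and 3 of them were called higher (PCCB, BCKDHA, DBT) and 0 lower, with a median of 0.45. Among all 7177 entries tested, 17.7% were called higher and 45.5% lower, with a median of −0.36. On all exons 8 of 8 were tested, 5 were called higher and 0 lower and the median was 0.98, where 17.5% of 9036 entries were higher and 48.3% lower. Of the study's own set of 657 nuclear-encoded mitochondrial genes, chosen on these samples and holding 5 of the members, 47.3% of the 636 tested were called higher on coding positions. TMM scaling shifted the median of all entries at the OMM from −0.36 to −0.02 and the calls to 27.4% higher and 22.5% lower, and it kept 3 members higher and 0 lower.

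Neither control location gave an enrichment. At the ER 5 of 6 members tested were called lower, with a median of −0.74, which is close to the background, as 71.6% of all 7875 entries were called lower and 20.1% higher and their median was −0.67. On all exons 7 of 8 were called lower against 71.7% of entries, and the exception was PCCA at −0.28 (0.33 with TMM scaling). On coding positions the lowest was DBT at −1.45 ± 0.22 SE (−0.81 and −1.54 per lysate, adjusted p = 9.1e-06, edgeR), while on all exons DBT was at −0.84 ± 0.12 SE and IVD was lower, at −0.89 ± 0.10 SE. On coding positions with TMM scaling, which moved the median of all entries to −0.02 and the calls to 29.9% higher and 24.9% lower, DBT was the 1 member still lower, at −0.81, and PCCB and MCCC2 turned to 0.09 and 0.24. In the cytosol 0 of 6 members were called in either direction, against 2.07% higher and 6.3% lower among 7648 entries (2.12% and 6.01% with TMM scaling), and 0 of 8 on all exons, against 3.65% and 7.17%, and on coding positions fitted values ran from −0.28 (DBT) to 0.06 (BCKDHB). The OMM exceeded the cytosol by 2.58 ± 0.13 SE for PCCB (adjusted p = 1.0e-09, edgeR), by 1.65 ± 0.18 SE for the BCKDHA entry (adjusted p = 2.4e-06, edgeR) and by 0.98 ± 0.32 SE for DBT (adjusted p = 0.016, edgeR). These 3 of 6 stood against 17.4% of entries called higher and 39.1% lower, and remained 3 with TMM scaling, against 26.4% and 19.4%. Among 617 nuclear-encoded mitochondrial genes tested, 44.7% were called higher, or 58% with TMM scaling, close to the share of the members. On all exons the difference was 2.58 for PCCA, 2.73 for PCCB, 3.01 for MCCC1, 0.32 for MCCC2 and 1.57 for BCKDHA, all 5 called higher (16.8% of entries were), while DBT at 0.20 was not.

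RNA-seq of pulldowns gave a second readout, in which whole mRNAs rather than footprints were counted. In WT cells PCCB mRNA had a log2 enrichment of 2.23 and 2.41 (fit 2.32 ± 0.11 SE, adjusted p = 6.4e-06, edgeR) on 2708 and 2173 counts in the total inputs. PCCA gave 1.06 and 1.25 (fit 1.16 ± 0.11 SE, adjusted p = 6.5e-05, edgeR). MCCC1 gave 1.14 and 1.28 (fit 1.21 ± 0.12 SE, adjusted p = 6.1e-05, edgeR). These 3 genes lay above 0 in both lysates, and PCCA and MCCC1 almost coincided. BCKDHA gave 1.91 and 2.29, but on 44 and 42 counts in the total inputs. It passed the minimum mean of 64 counts only through its pulldowns, so its enrichment is given with no test and outside the counts of enriched mRNAs, and its exons overlap other genes.

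The other members were near 0 or below in WT. MCCC2 gave −0.09 and −0.13 (fit −0.11 ± 0.14 SE, adjusted p = 0.50, edgeR) on 7150 and 7490 counts. DBT gave −0.89 and −0.98 (fit −0.93 ± 0.09 SE, adjusted p = 5.3e-05, edgeR). IVD (−0.29 and −0.32) and BCKDHB (−0.43 and −0.26) were called lower at −0.31 and −0.35, but with TMM scaling, which moved the median of all genes from −0.28 to 0.01, they were at −0.01 and −0.05 and neither was called. Leaving out BCKDHA, 3 of 7 members were called higher and 3 lower in WT (1 lower with TMM scaling), against 20.2% and 45.6% of 13856 genes (31% and 27.8% with TMM scaling) and 63.2% higher among the 657 nuclear-encoded mitochondrial genes.

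**Figure D3:**
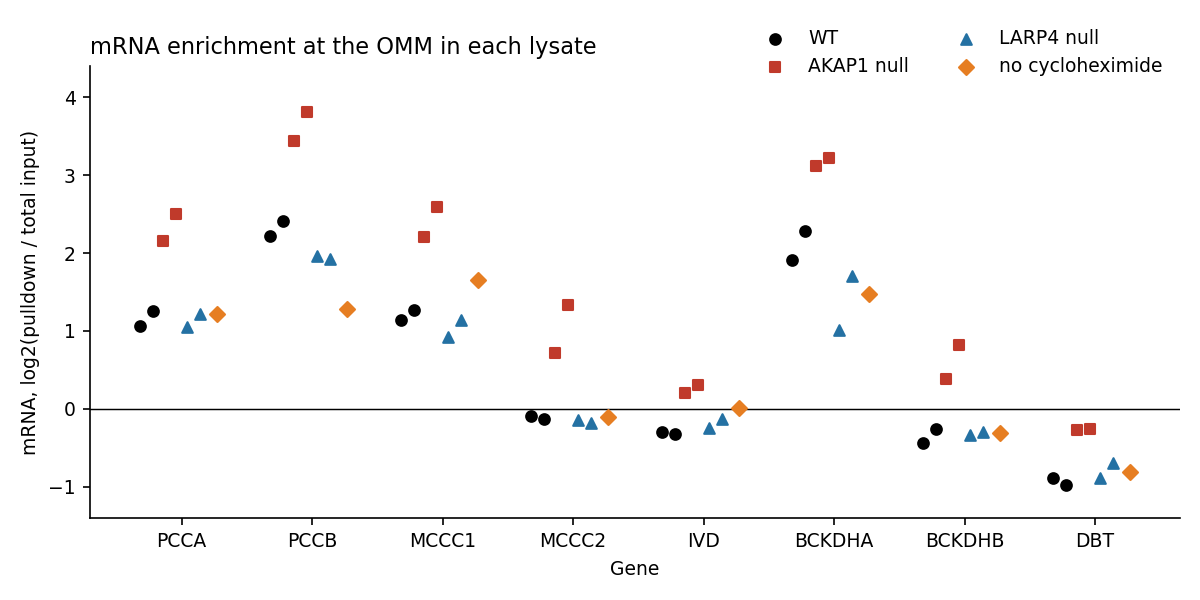
Log2 ratio of pulldown to total input CPM (vertical axis) for the 8 genes (horizontal axis), 1 point per lysate, in WT, AKAP1 null and LARP4 null cells and in the sample without cycloheximide. Both AKAP1 null points lie above both WT points in all 8 genes.

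Whether subunits of 1 complex agreed was tested on the 6 RNA-seq lysates of WT and null cells, by an exact two-sided permutation test that flips the sign of each lysate's difference. The smallest p this allows is 0.03125, which each of the 3 pairs without BCKDHA reached (adjusted p = 0.03125 over the 5 pairs computed), since the first-named subunit was higher in 6 of 6 lysates each time. Any 2 genes whose difference keeps its sign in 6 of 6 lysates reach this p. How often other pairs of genes do so was not counted. PCCB exceeded PCCA by 1.09 ± 0.24 (SD, n = 6 lysates) in log2. MCCC1 exceeded MCCC2 by 1.30 ± 0.15 (SD, n = 6 lysates). In 1 carboxylase the β subunit was therefore the more enriched mRNA and in the other the α subunit. BCKDHB exceeded DBT by 0.64 ± 0.24 (SD, n = 6 lysates). BCKDHA, on 42 to 113 counts in the total inputs, was 2.23 ± 0.49 above BCKDHB and 2.87 ± 0.62 above DBT (SD, n = 6 lysates each), which is given as a description. Lysates of 1 genotype share a cell line, and without the AKAP1 null lysates the 3 tested differences were 0.98, 1.26 and 0.53 in the same order, where 4 lysates cannot give a p below 0.125.

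MCCC1 exceeded MCCC2 in both footprints and mRNAs, by unlike amounts, whereas BCKDHB and DBT changed order. PCCB exceeded PCCA in mRNA, but in OMM footprints the difference was small. It was smaller than the swing of this pair between cytosol lysates on all exons, at 0.41 and −0.44. On footprints over all exons at the OMM PCCB exceeded PCCA by 0.19 and 0.09, against 0.71 to 1.31 across the 6 mRNA lysates. MCCC1 exceeded MCCC2 by 2.61 and 2.55, against 1.07 to 1.50 in mRNA. BCKDHB minus DBT was −0.54 and −0.16 on all exons, the opposite sign to the 0.40 to 1.08 in mRNA. In the 1 lysate without cycloheximide the mRNA differences were 0.06 for PCCB minus PCCA, near the footprint values, 1.77 for MCCC1 minus MCCC2 and 0.51 for BCKDHB minus DBT. The 2 assays were separate experiments and the difference between them was not tested.

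**Figure D4:**
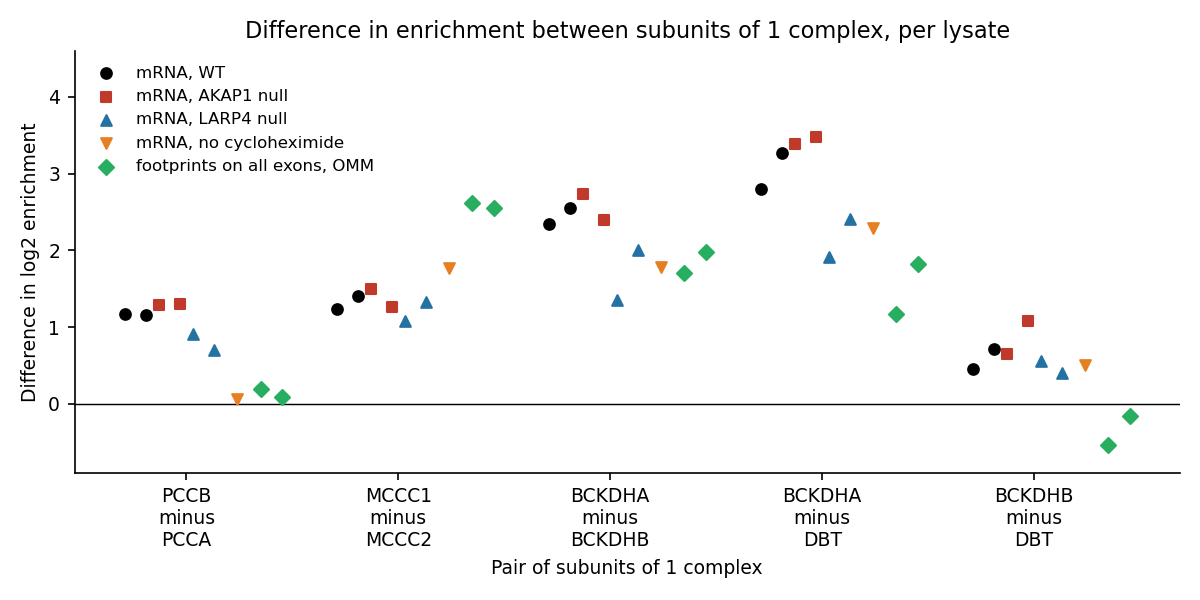
Difference in log2 enrichment between subunits of 1 complex (vertical axis) for 5 pairs (horizontal axis), 1 point per lysate, for mRNA in 3 genotypes and in the sample without cycloheximide (inverted triangles), and for footprints over all exons at the OMM (diamonds). All mRNA points lie above 0, between 0.06 (PCCB minus PCCA without cycloheximide) and 3.47 (BCKDHA minus DBT), and the footprint points of BCKDHB minus DBT lie below 0.

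AKAP1 is an OMM scaffold protein that binds mRNA. Leaving out BCKDHA, the enrichment at the OMM of 7 of 7 members was called higher in AKAP1 null cells than in WT (6 with TMM scaling). Among them were mRNAs that were enriched in WT and mRNAs that were not. PCCB reached 3.45 and 3.81 against 2.23 and 2.41 in WT, a difference of 1.31 ± 0.15 SE (adjusted p = 0.0011, edgeR). PCCA reached 2.15 and 2.50 against 1.06 and 1.25 (difference 1.17 ± 0.16 SE, adjusted p = 0.0021, edgeR). MCCC1 reached 2.21 and 2.59 against 1.14 and 1.28 (difference 1.19 ± 0.16 SE, adjusted p = 0.0023, edgeR). MCCC2, which was near 0 in WT, reached 0.71 and 1.34 (difference 1.13 ± 0.19 SE, adjusted p = 0.0067, edgeR). BCKDHB went from −0.43 and −0.26 to 0.38 and 0.83 (difference 0.95 ± 0.17 SE, adjusted p = 0.0077, edgeR). Here, on library totals, the lysates of the null line were on the other side of 0 from those of WT. The place of 0 depends on the scaling, as the WT median of all genes was −0.28 with library totals and 0.01 with TMM scaling.

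Smaller differences were seen for DBT, at −0.27 and −0.25 in the null line (difference 0.67 ± 0.12 SE, adjusted p = 0.0092, edgeR), and for IVD, at 0.21 and 0.30 (difference 0.56 ± 0.12 SE, adjusted p = 0.017, edgeR, or 0.39 and adjusted p = 0.087 with TMM scaling). BCKDHA reached 3.12 and 3.22 against 1.91 and 2.29 in WT, given with no test because of its few counts in the total inputs. Thus 7 of 7 members without BCKDHA were called higher and 0 lower. The median of all 8 was 1.10. Of 13856 genes 6.52% were called higher and 7.96% lower, with a median of 0.19. TMM scaling moved that median to 0.01 and the calls to 2.06% higher and 10.3% lower, and left 6 members higher. The median of all 8 members was then 0.93. Both null lysates lay above both WT lysates in 8 of 8 members, BCKDHA among them as a description, and in 53.4% of all genes. They lay below both WT lysates in 0 members and 22.3% of genes. Of the 657 nuclear-encoded mitochondrial genes, 25.6% were called higher and 24.4% lower, with a median of 0.07. The study reports that AKAP1 loss raised the enrichment of long coding sequences as a class and lowered that of short ones. All 8 members, at 392 to 728 amino acids, fall on the longer side of the length that divides its plot of AKAP1 loss. Its class of locally translated long coding sequences has a higher length limit and needs enrichment of OMM footprints. BCKDHB, at 392 amino acids, and the members not enriched in OMM footprints are outside that class. Whether the members rose more than other long coding sequences was not tested. The number of members called fell to 3 without either WT replicate and to 4 without AKAP1 null replicate 2, and PCCA, PCCB and MCCC1 passed in each of these fits. A fit without the term for the lysate called 1 member, MCCC2.

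In AKAP1 null cells alone, again leaving out BCKDHA, 6 of 7 members were called higher and DBT lower (−0.26 ± 0.09 SE, adjusted p = 0.041, edgeR), against 13.9% of genes higher and 28.1% lower and 58.9% higher among the nuclear-encoded mitochondrial genes. The call for DBT was lost with TMM scaling, at −0.14, which gave 20% higher and 20.7% lower.

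LARP4 is an mRNA-binding protein that has also been linked to the OMM. In LARP4 null cells PCCA (1.06 and 1.22), PCCB (1.96 and 1.93) and MCCC1 (0.92 and 1.14) were called higher and BCKDHB (−0.33 and −0.30) and DBT (−0.89 and −0.70) lower, while MCCC2 (−0.15 and −0.19) and IVD (−0.24 and −0.13) were not called. BCKDHA was at 1.02 and 1.71. The 3 and 2 of 7 without BCKDHA stood against 22.8% and 30% of all genes (27.9% and 25% with TMM scaling) and 58.6% higher among the nuclear-encoded mitochondrial genes, and BCKDHB was not called with TMM scaling (−0.23, adjusted p = 0.15, edgeR). Leaving out BCKDHA, the differences from WT ran from −0.37 ± 0.15 SE for PCCB (adjusted p = 0.30, edgeR) to 0.14 ± 0.12 SE for DBT. No member and no gene among the 13856 was called, although 2270 genes had an unadjusted p under 0.05 and DESeq2 called 456. Without LARP4 null replicate 1 the fit called 4517 genes higher and 1142 lower, among the latter PCCB. Both LARP4 null lysates lay above both WT lysates in 2 members and below them in 4, BCKDHA among the latter, against 43.6% and 12.4% of all genes. Both comparisons with WT share the WT lysates.

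No difference in mRNA level between total inputs passed the test for a member. In bulk lysates fewer cells with an mRNA and less of it per cell cannot be told apart. Of the 7 members that passed the minimum there, 0 were called in AKAP1 null against WT, with differences from −0.24 ± 0.18 SE (MCCC1) to 0.16 ± 0.18 SE (PCCB), and 0 in LARP4 null, with differences from −0.09 (DBT) to 0.31 (PCCA and MCCC1). Among all 13977 genes 0 were called in the first comparison (489 at an unadjusted p under 0.05, 15 by DESeq2) and 2 in the second, or 0.00715% in each direction. BCKDHA, with a mean of 58 counts, was not tested.

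Other genes of the same pathways, 23 in number, were read beside the members. In WT mRNA 10 were called higher and 7 lower, with a median of 0.13, against 20.2% and 45.6% of all genes, and with TMM scaling 14 higher and 3 lower, against 31% and 27.8%. Past a log2 of 1 were DLD, the dihydrolipoamide dehydrogenase that serves the branched-chain complex as E3 (2.33), ACAT1, the last thiolase of isoleucine breakdown (2.17), BCKDK, the kinase that inactivates the branched-chain complex (1.67), HSD17B10 of the isoleucine branch (1.19) and MMUT, the methylmalonyl-CoA mutase after propionyl-CoA carboxylase (1.15), with the phosphatase PPM1K (−1.10) and the cytosolic transaminase BCAT1 (−1.24) on the other side. On OMM footprints over all exons 7 of 21 tested were higher and 5 lower, against 17.5% and 48.3% of all entries, led by DLD (3.06), MMUT (2.44), ACAT1 (2.31) and BCKDK (1.33). With TMM scaling 12 were higher and 1 lower, where 2472 of all 9036 entries were higher. On coding positions 6 of 19 were higher and 2 lower, against 17.7% and 45.5% (with TMM scaling 11 and 1, against 27.4% and 22.5%), and DLD (1.50) and MMUT (2.50) passed 1. From WT to AKAP1 null 8 of 23 were called higher and 1 lower under both scalings, with a median of 0.29 (0.12 with TMM scaling). Of all genes 6.52% were called higher and 7.96% lower (2.06% and 10.3% with TMM scaling). The rises past 1 were ALDH6A1 (1.66) and HIBCH (1.01) of valine breakdown, MMUT (1.57), DLD (1.53), ACAT1 (1.48) and ACADSB (1.45), the acyl-CoA dehydrogenase of the isoleucine branch. In AKAP1 null cells themselves DLD reached 3.86, ACAT1 3.64, MMUT 2.73, BCKDK 2.60, ALDH6A1 1.56 and HIBCH 1.30, and in LARP4 null cells DLD was at 2.22, ACAT1 at 1.88, BCKDK at 1.50 and BCAT1 at −1.10. At the ER on coding positions 17 of 19 were called lower, against 71.6% of entries, and BCAT1 (−1.24) and MMUT (−1.03) lay past −1. With TMM scaling 2 were lower and 3 higher, against 24.9% and 29.9% of entries. The OMM exceeded the cytosol by 1.76 for DLD and 2.41 for MMUT.

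Because the pulldown binds biotin and PCCA and MCCC1 carry it, the other human biotin enzymes were measured in the same libraries. These are PC (mitochondrial pyruvate carboxylase), ACACA and ACACB (acetyl-CoA carboxylases) and HLCS, the ligase that attaches biotin to them. In WT mRNA none was enriched, as PC gave −0.16 and −0.09, ACACA −1.66 and −1.61, ACACB −0.94 and −1.10 and HLCS −0.67 and −0.55. In AKAP1 null cells the means of 2 lysates were 0.87 for PC, −1.04 for ACACA, −0.76 for ACACB and −0.21 for HLCS. There 1 of 4 was called higher and 2 lower, against 13.9% and 28.1% of all genes. From WT to AKAP1 null 2 of 4 were called higher and 0 lower, against 6.52% and 7.96% (1 and 0 with TMM scaling, against 2.06% and 10.3%). In OMM footprints over all exons ACACA was at −0.43 ± 0.11 SE and HLCS at −0.30 ± 0.12 SE, both called lower (with TMM scaling −0.11 and 0.02, and neither called), and ACACB missed the minimum. PC was at 1.79 ± 0.15 SE (adjusted p = 3.1e-08, edgeR), although on coding positions it was at 0.02 ± 0.24 SE (adjusted p = 0.96, edgeR). For PC the same annotation rule gave 1818 coding bases against 1815 counted, which in the reference transcript lie within codons 1 to 510 of a protein of 1178 amino acids. Footprints inside these positions gave −0.07 and 0.06, and the remaining exon footprints 3.03 and 2.59, on 74 and 75 footprints in the total inputs. The value for PC thus depends on which part of the gene is counted, by more than the difference between lysates.

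Without cycloheximide, in 1 lysate with a shorter pulse and therefore with no test, the members kept their order in part. PCCB mRNA was at 1.28, or 1.03 below its WT mean, BCKDHA at 1.48, MCCC1 at 1.66, PCCA at 1.22, IVD at 0.01, MCCC2 at −0.11, BCKDHB at −0.31 and DBT at −0.81. The median of all 13856 genes was 0.16 above the WT mean, and only 1.02% of genes had a smaller difference than PCCB and 4.19% a smaller one than BCKDHA, whereas the other 6 members lay between −0.00 (MCCC2) and 0.45 (MCCC1). PCCB, the most enriched member mRNA in WT, was thus below MCCC1 and BCKDHA here. Among the biotin enzymes ACACA changed sign, from −1.64 to 1.39, a difference of 3.02 that only 10 genes exceeded. ACACB rose by 1.42 to 0.40 and PC by 1.01 to 0.88, a difference that 2.35% and 5.56% of genes exceeded, and HLCS by 0.21 to −0.40. What part bound biotin of the enzymes themselves has in any of these values was not tested.

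**Figure D5:**
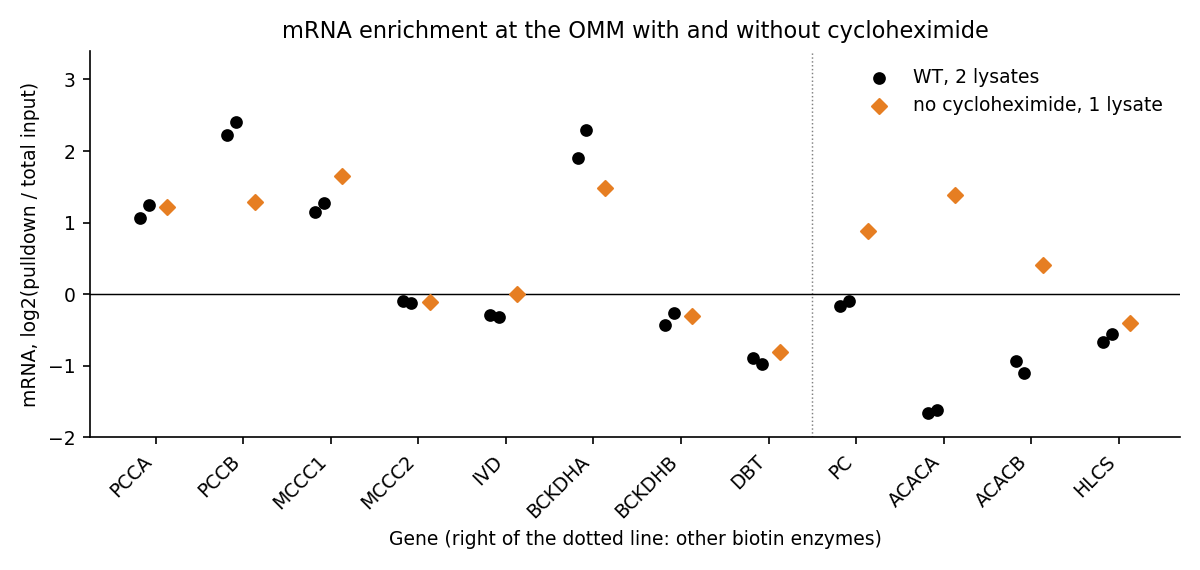
Log2 ratio of pulldown to total input CPM (vertical axis) in 2 WT lysates (circles) and in 1 lysate without cycloheximide (diamonds), for the 8 genes and for 4 other biotin enzymes right of the dotted line. ACACA lies at −1.66 and −1.61 in WT and at 1.39 without cycloheximide, and PCCB at 2.23 and 2.41 against 1.28.

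The mRNAs whose enrichment over the 6 lysates was most like that of each member were found by the root mean square difference in log2 among 13856 genes, as a description of lysates that share depth and genotype. For PCCA they were RSPRY1 (0.07), MCCC1 (0.09) and CRAT (0.12), and for MCCC1 they were PCCA (0.09), CRAT (0.10) and ACSS1 (0.12). The biotin-bearing subunits of the carboxylases were therefore closer to each other than either was to its own partner. For PCCB they were OXCT1 (0.05), ERAL1 (0.08) and ALDH2 (0.10), and for MCCC2 CLPX (0.06), MTPAP (0.13) and CPT1A (0.14). For IVD they were PRKD3 (0.04), SCO1 (0.07) and HSDL1 (0.07), for DBT GOPC (0.08), TMEM87B (0.08) and PTCD2 (0.09), and for BCKDHB GTPBP10 (0.12), MIGA1 (0.15) and FBXL4 (0.16). BCKDHA had no gene closer than PMPCB (0.30), ALDH1B1 (0.30) and GFM2 (0.31).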

How the data were processed

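Per the file headers and the study's methods, the authors aligned footprints to GRCh38 with up to 1 mismatch, counted reads of 27 to 36 bases by their centres with plastid (13 bases trimmed from each end) over positions outside a uniqueness mask, and deposited estimated counts and RPKM per gene for coding positions and exons. Overlapping genes share 1079 entries. RNA-seq was aligned with STAR and counted with featureCounts, and the authors deposited counts and an FPKM column, which came out at 10.0 times the FPKM recomputed from the counts and was therefore read as a score and used only in ratios. From 3 to 7 broken lines per RNA-seq table were left out. Footprint counts (rounded) and RNA-seq counts were tested with edgeR 4.0.16 (quasi-likelihood, two-sided, Benjamini-Hochberg over all entries tested, adjusted p below 0.05), with a term per lysate and a pulldown effect per group. SE is the fitted log2 divided by the root of F. Library totals scaled the enrichment fits and TMM the total inputs. Entries needed 64 footprints in both total inputs, or a mean of 64 RNA-seq counts. Per-lysate RNA-seq ratios used CPM after adding 0.5. The scripts were tested on simulated counts. The members and gene lists were chosen with earlier results of these data known. The named genes were the 8 members, pathway genes called past a log2 of 1, the biotin enzymes and the 3 mRNAs nearest to each member. Genes were named and placed with GENCODE 44, and the sequence was read from the GRCh38 genome. The planned protein comparisons (identity, charge, hydropathy) were not run, as no protein table was used here. Alternatives were TMM or library totals, DESeq2 1.42.0, a minimum of 10 or none, other blocks, only the compared groups, single replicates left out, 1 count added, FPKM ratios, and, after seeing the data, all exons.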

Additional observations from a re-analysis of the deposited data

Results flagged for a closer look

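Differences between groups under 1 contrast were singled out where the test of the difference itself passed. In ribosome profiling the enrichment at the OMM exceeded that in the cytosol by 2.58 in log2 for PCCB, 1.65 for the BCKDHA entry and 0.98 for DBT, on counted coding positions and in 2 of 2 lysates at each location, although DBT lost its call on all exons. In RNA-seq the enrichment at the OMM in AKAP1 null cells exceeded that in WT by 1.31 for PCCB, 1.19 for MCCC1, 1.17 for PCCA, 1.13 for MCCC2, 0.95 for BCKDHB, 0.67 for DBT and 0.56 for IVD. Both null lysates were above both WT lysates each time, as they were in 53.4% of all genes. IVD lost its call with TMM scaling. The AKAP1 null cells are 1 monoclonal line, so the null allele and the clone cannot be told apart.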

How the results depend on the processing

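Calls at the level of members depended on scaling mainly where values were negative. Members lower at the ER numbered 1 with DESeq2 or TMM scaling, 2 with all exons and TMM scaling and 3 with no replicate block, against 5. Of all 7875 entries there, 1608 were lower with DESeq2 and 24.9% with TMM scaling, against 71.6%. With DESeq2, TMM scaling, and all exons with TMM scaling, PCCB at the ER turned to 0.056, 0.089 and 0.17 and IVD at the OMM to 0.11, 0.10 and 0.12. MCCC2 at the ER turned to 0.18 (DESeq2) and 0.24 (TMM scaling), and footprints of BCKDHB at the OMM to 0.14 (TMM scaling) and 0.11 (all exons with TMM scaling). In the cytosol MCCC2 was at −0.55 without replicate 1 and 0.37 without replicate 2. Members higher in OMM footprints numbered 5 on all exons and 6 with TMM scaling added, against 3, and the same held for the OMM minus the cytosol, where no replicate block left 1. Of all entries at the OMM, 17.5% were higher on all exons and 2472 of 9036 with TMM scaling added, against 17.7%. For the OMM minus the cytosol these were 16.8% and 2295 of 8851, against 17.4%, and 243 of 6910 with no replicate block. In WT mRNA 1 member was lower with DESeq2, TMM scaling, no replicate block or either replicate left out, against 3. In AKAP1 null cells 0 were lower with DESeq2, TMM scaling, no minimum, no replicate block or either replicate left out, against 1. In LARP4 null cells 1 was lower with DESeq2, TMM scaling, a minimum of 10, no replicate block or only the compared groups, against 2. From WT to AKAP1 null, no replicate block left 1 of 7 calls and single replicates left out gave 3 to 5. From WT to LARP4 null 1 member was lower with DESeq2, and 0 to 1 with replicates left out. With replicates left out (smallest p 0.0625) the pair differences ran from 1.05 to 1.17 (PCCB minus PCCA), 1.26 to 1.34 (MCCC1 minus MCCC2), 2.13 to 2.41 (BCKDHA minus BCKDHB), 2.75 to 3.07 (BCKDHA minus DBT) and 0.55 to 0.69 (BCKDHB minus DBT), and without the AKAP1 null lysates they were 0.98, 1.26, 2.06, 2.59 and 0.53. Of all genes, TMM scaling left 27.8% lower in WT mRNA, against 45.6%. In AKAP1 null cells it left 20.7%, against 28.1%, and in LARP4 null cells 25%, against 30%. From WT to AKAP1 null, 98 of 13856 genes were higher with no replicate block, against 6.52%. The cause of the changes in member calls and pair differences was not tested. Of the values of single members, 673 kept direction and call, 67 lost and 15 gained a call and 11 changed sign.

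Counts over all genes moved more. From WT to AKAP1 null 98 (no replicate block) to 4530 (only the compared groups) genes were higher, against 903, and at the OMM 583 to 2472 entries were higher in footprints, against 1271. A total input and its pulldown come from 1 lysate and are paired. Across genotypes the correlation of replicate differences was −0.03, −0.07 and 0.01 for the enrichment and 0.21, 0.34 and −0.06 for the total inputs (WT with AKAP1 null, WT with LARP4 null, AKAP1 null with LARP4 null), so not every pair of groups was over 0.1 and replicates were taken to share only a number. A replicate block left 0 members called in the total inputs, and a replicate block across groups kept 7 members from WT to AKAP1 null and 3 for the OMM minus the cytosol. Where a replicate was left out, the lone lysate was assumed to vary like those of the other groups. With 2 lysates per group and under 64 coding footprints for PCCA and MCCC1, smaller differences could not be seen.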
